A study of Mus musculus with 32 samples.

Results

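The genes described here are 9 genes by which striatal medium spiny neurons are recognised, out of 54146 genes in the count table: Drd1, Pdyn and Tac1 of the direct pathway, Drd2, Penk and Adora2a of the indirect pathway, and Ppp1r1b, Bcl11b and Rgs9 of both. They were chosen by name, their Ensembl identifiers were matched to symbols through GENCODE, and all 9 passed the filter on low counts in both regions. Their messenger RNA was measured in 8 groups of 4 libraries, 4 groups from hippocampus and 4 from striatum, each library being a single hemisphere of 1 male C57BL/6J mouse aged 12 weeks. Mice were injected intraperitoneally with CI-994, which inhibits class I histone deacetylases, at 30 mg/kg or with its DMSO, Kolliphor and saline vehicle, 1 h before the session. The session was either contextual fear conditioning (CFC), in which a chamber is paired with 2 foot shocks of 0.2 mA, or equal time in the chamber with no shock (context), and tissue was frozen 1 h afterwards. The groups of each region are called vehicle context, vehicle CFC, CI-994 context and CI-994 CFC. Mice of a cage shared their behaviour, so cage and behaviour cannot be told apart. The labels do not tell whether a hippocampal and a striatal library of the same number came from 1 mouse.

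Medium spiny neurons are the GABAergic projection neurons that make up most of the striatum. Those of the direct pathway carry the dopamine D1 receptor, which raises cAMP, and release dynorphin and substance P, whereas those of the indirect pathway carry the dopamine D2 receptor, which lowers cAMP, together with an adenosine receptor that raises it, and release enkephalin. Both share a signalling apparatus that reads dopamine out through cAMP. The hippocampus has no medium spiny neurons, although its granule cells, pyramidal cells and interneurons are known to use some of the same genes.

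The libraries held 26026024 to 36670767 counts in hippocampus and 27418127 to 33635025 in striatum. Of 11 hippocampal excitatory neuron markers, 10 were higher in hippocampus than in striatum in the vehicle context groups, and of the further medium spiny neuron genes examined, 18 of 18 shared by both pathways, 5 of 6 of the direct and 5 of 5 of the indirect pathway were higher in striatum. The exception was Eya1, listed with the direct pathway and named for this reason after its values were seen, which was lower there (log2 difference -1.31, edgeR adjusted p = 1.42e-11). A few libraries stood apart. In hippocampus, CI-994 CFC replicates 2 and 4 had summed levels of 9 choroid plexus genes of 6086 and 5898 CPM (counts scaled to a common library total), against 31.7 to 427 in the other 14. In striatum, CI-994 CFC replicate 2 and vehicle CFC replicate 3 had the lowest mean levels of the 9 genes and were among the libraries with most neocortical marker RNA. Some results of the 9 genes that rest on these 4 libraries are given with and without them, and others only with all libraries. The 2 striatal libraries were set apart in part by the levels of these same genes, so values without them are a description.

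In the striatum without drug or shock, the enkephalin precursor gene Penk and Ppp1r1b, which encodes the phosphatase inhibitor DARPP-32, had the highest levels per length of transcript. On the scale of CPM per kilobase of exon, mean levels in the vehicle context group were 822 ± 78.3 for Penk and 512 ± 33.9 for Ppp1r1b (SD, n = 4). The receptors followed, with Drd2 at 127 ± 16.3 and Drd1 at 103 ± 1.72 CPM per kilobase. Rgs9, a regulator that shortens G protein signals from dopamine receptors, stood at 97.2 ± 10.8, and the adenosine receptor gene Adora2a at 61.9 ± 16.4. The direct pathway peptide genes were lower, with Tac1, the substance P precursor, at 53.6 ± 2.48 and Pdyn, the dynorphin precursor, at 39.1 ± 6.50. Bcl11b, a zinc finger transcription factor needed for medium spiny neuron maturation, was lowest of the 9 at 29.2 ± 0.674. The ranges over libraries overlapped between the neighbours Drd1 and Rgs9, and between Adora2a and Tac1. They also overlapped between Drd2 and Rgs9, and between Adora2a and Pdyn, which are not neighbours. The order within all those pairs was not resolved beyond their spread. The ranges of the other neighbours did not overlap. In the CI-994 context group Tac1 stood before Adora2a and Rgs9 before Drd1, again with overlapping ranges.

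All 9 genes were higher in striatum than in hippocampus in the vehicle context groups, where 44.1% of the 19198 genes tested over all libraries differed, 19.9% higher in striatum and 24.2% lower (edgeR quasi-likelihood test, Benjamini-Hochberg adjusted p under 0.05). The log2 differences were largest for the receptors, 7.92 (SE 0.312) for Adora2a, 7.27 (SE 0.181) for Drd2 and 7.04 (SE 0.140) for Drd1. Among the peptide genes, Penk differed by 5.91, Tac1 by 5.16 and Pdyn by 2.82 on the log2 scale. Of the shared genes, Ppp1r1b differed by 5.90 and Rgs9 by 5.75, and Bcl11b by only 0.97 (SE 0.0939, adjusted p = 6.53e-10). Over all 16 libraries of each region, the median level was 187 CPM in striatum and 0.703 CPM in hippocampus for Adora2a, but 254 and 157 CPM for Bcl11b. Even so, the lowest striatal library exceeded the highest hippocampal library for every one of the 9, by 93.8 times for Adora2a, 4.52 times for Pdyn and 1.15 times for Bcl11b. In bulk tissue, fewer cells of a type and less RNA per cell cannot be told apart, here and in all results that follow.

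The order in hippocampus was different. Bcl11b had the highest level per length, 15.2 ± 0.896 CPM per kilobase in the vehicle context group, followed by Penk at 14.0 ± 1.44, Ppp1r1b at 8.73 ± 1.36 and Pdyn at 5.63 ± 0.784. The other 5 genes lay between 0.254 and 1.84 CPM per kilobase, with Adora2a lowest. Bcl11b and Penk overlapped in their ranges, as did Rgs9 and Tac1, and Drd2 and Drd1. Adora2a rested on 11 to 43 counts per library there, Drd2 on 58 to 102 and Drd1 on 78 to 129. In the hippocampal drug comparison after context, Adora2a had the largest SE of the log2 fold change, 0.352. Ppp1r1b came next at 0.209, beside 0.139 for Drd2 and 0.132 for Drd1.

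Because Pdyn, Tac1 and Bcl11b were the genes that rose in striatum under CI-994, and Drd1 and Drd2 are the receptors that divide the pathways, the sequences before their start sites are shown. They come from RefSeq for build GRCm38.p6, whose table had an entry for 6 of the 9 genes. Each is the part of the 250 bases before the RefSeq start that lies outside GENCODE exons, written 5′ to 3′ on the gene's strand, with capitals for a match on either strand to the cAMP response element half-site TGACG or the GC box GGGCGG.
Drd1: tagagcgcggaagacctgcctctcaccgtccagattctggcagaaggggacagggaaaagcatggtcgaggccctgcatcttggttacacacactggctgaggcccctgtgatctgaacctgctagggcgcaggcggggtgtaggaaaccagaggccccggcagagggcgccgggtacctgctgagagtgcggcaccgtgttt
Pdyn: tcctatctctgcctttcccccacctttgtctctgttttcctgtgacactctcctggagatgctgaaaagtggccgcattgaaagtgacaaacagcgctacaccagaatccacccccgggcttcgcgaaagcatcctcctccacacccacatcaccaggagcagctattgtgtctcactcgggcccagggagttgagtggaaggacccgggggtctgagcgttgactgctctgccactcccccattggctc
Tac1: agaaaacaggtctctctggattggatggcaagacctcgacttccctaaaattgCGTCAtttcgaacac
Drd2: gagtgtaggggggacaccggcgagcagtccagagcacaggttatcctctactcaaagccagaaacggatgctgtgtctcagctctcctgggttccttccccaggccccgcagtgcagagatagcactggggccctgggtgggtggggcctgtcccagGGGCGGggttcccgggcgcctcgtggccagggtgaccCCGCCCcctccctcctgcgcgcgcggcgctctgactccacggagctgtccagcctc
Bcl11b: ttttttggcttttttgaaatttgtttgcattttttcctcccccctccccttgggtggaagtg
Drd1 was read from chr13:54055706-54055908 on the minus strand, Pdyn from chr2:129699939-129700188 minus, Tac1 from chr6:7554811-7554878 plus, Drd2 from chr9:49340153-49340402 plus, and Bcl11b from chr12:108003603-108003664 minus. Over the full 250 bases, the Tac1 promoter held 2 half-sites, of which the one at -197 to -193 is in the stretch shown, and 1 GC box, and the Drd2 promoter held 2 GC boxes. Half-sites occurred in 17.8% and GC boxes in 32.7% of 32851 promoters of this length. The complete element TGACGTCA, which contains the half-site and occurred in 1.55%, was in none of the 6 promoters. None of these motifs, nor the TATA box TATAAA found in 12.4% of promoters, matched in Drd1, Pdyn or Bcl11b. The Drd1 and Drd2 promoters were GC-rich, at 64% and 68.8% against a median of 52.4% over all promoters, and Bcl11b was at 44.8%. These matches are a description of letters and were not tested against the response.

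**Figure D1:**
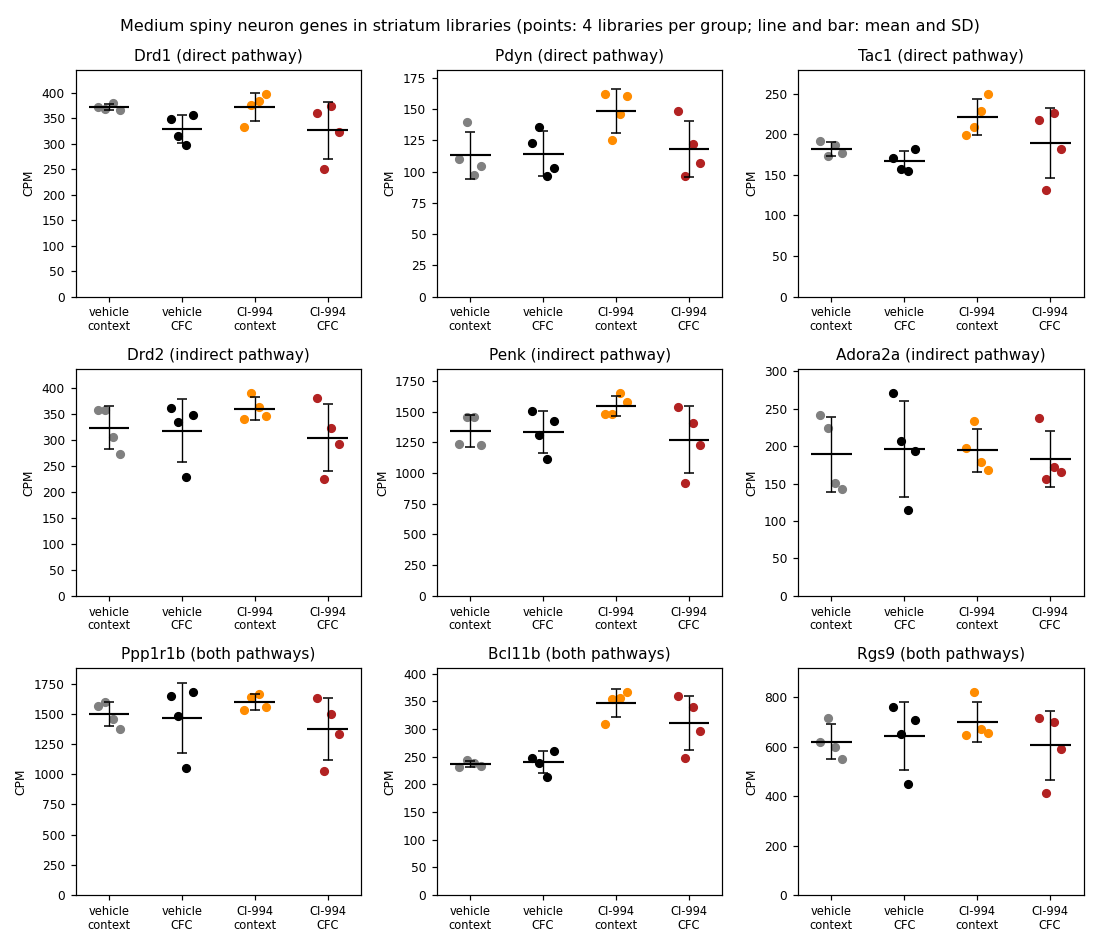
Levels of the 9 genes in the 16 striatum libraries, in CPM on axes that start at 0, with 4 libraries per group as points and the mean and SD as line and bar. Bcl11b is the gene whose CI-994 libraries stand highest over vehicle, and in CI-994 CFC 1 library, replicate 2, is lowest for all 9 genes.

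In striatum after context exposure, CI-994 raised 3 of the 9 genes, Bcl11b, Pdyn and Tac1, and lowered none, where 24.8% of the 18256 genes tested passed, 10.3% higher and 14.5% lower. Bcl11b measured 231, 243, 239 and 234 CPM in the vehicle libraries and 309, 354, 356 and 366 CPM under CI-994. All 4 drug libraries lay above all 4 vehicle libraries. The log2 fold change was 0.66 (SE 0.107, edgeR adjusted p = 0.000238), or 1.58-fold. Here and below, CPM are scaled to each library's total counts, whereas fold changes come from the fit, which scales libraries by trimmed means (TMM) and so gives slightly higher values for CI-994.

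Both direct pathway peptide genes rose in the same comparison. Pdyn measured 110, 140, 97.1 and 104 CPM with vehicle and 162, 125, 146 and 161 CPM with CI-994. Drug replicate 2 lay below vehicle replicate 2, so the groups overlapped, and the log2 fold change was 0.51 (SE 0.151, adjusted p = 0.0203). Tac1 measured 191, 173, 187 and 177 CPM with vehicle and 199, 209, 228 and 250 CPM with CI-994. Here the groups did not overlap, with a log2 fold change of 0.40 (SE 0.138, adjusted p = 0.0438). The Pdyn and Tac1 calls were close to the threshold: when each of the 8 libraries was left out in turn, Pdyn passed in 3 fits and Tac1 in 1, with log2 fold changes from 0.45 to 0.60 and from 0.33 to 0.45. Scaling by library size alone gave 0.39 for Pdyn (adjusted p = 0.0527) and 0.28 for Tac1 (adjusted p = 0.113), and replicates 1 and 2 alone gave 0.31 and 0.28.

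The remaining genes had positive fold changes that did not pass. Penk, the enkephalin precursor of the indirect pathway, measured 1238, 1454, 1455 and 1227 CPM with vehicle and 1480, 1479, 1650 and 1576 CPM with CI-994. Its groups did not overlap, yet the log2 fold change of 0.32 (SE 0.140) had an adjusted p of 0.111. Groups with all drug libraries above all vehicle libraries were seen for Bcl11b, Tac1 and Penk, 3 of the 9 genes, and for 7.26% of all genes tested. The reverse was seen for 0 of the 9 and for 23.1% of all genes. Without striatum CI-994 CFC replicate 2 and vehicle CFC replicate 3, which enter the fit through its shared estimate of spread, the Penk value was 0.29. Its adjusted p is not given, since those libraries were set apart in part by low levels of these genes. Of the receptors, Drd1 had a log2 fold change of 0.12, Drd2 of 0.27 and Adora2a of 0.15, with adjusted p of 0.495, 0.233 and 0.668. Drd1 was the steadiest gene in vehicle context libraries, with 367 to 381 CPM, and spanned 332 to 398 CPM with CI-994. Its mean was 372.1 CPM with vehicle and 372.5 CPM with CI-994, so its positive fold change rests on the TMM scaling. The other genes that did not pass had higher mean CPM with CI-994. Ppp1r1b and Rgs9 had log2 fold changes of 0.21 and 0.29. The median over the 9 genes was 0.29, beside 0.03 over all genes tested.

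After conditioning, Bcl11b was the only one of the 9 that passed in striatum, where 24.2% of all genes passed, 9.57% higher and 14.6% lower. It measured 247, 239, 214 and 260 CPM with vehicle and 359, 248, 340 and 296 CPM with CI-994, a log2 fold change of 0.46 (SE 0.107, adjusted p = 0.00431). Drug replicate 2 lay within the vehicle range and the other 3 above it. When each of the 8 libraries was left out in turn, the Bcl11b log2 fold change ran from 0.37 to 0.55. No gene of the 9 had drug libraries wholly above vehicle libraries, against 5.74% of all genes, and none wholly below, against 18.6%. Tac1 measured 171, 158, 155 and 182 CPM with vehicle and 218, 132, 226 and 182 CPM with CI-994, a log2 fold change of 0.28 (SE 0.138, adjusted p = 0.156). Drug replicate 2 was the lowest of the 8 Tac1 libraries. Without that library the value was 0.41, and without the 2 striatal libraries that stood apart 0.38. These values are a description, since the libraries left out were those with low levels of these genes. The other 7 genes had log2 fold changes between -0.01 and 0.14, and library-size scaling alone turned 5 of them slightly negative. The median of the 9 was 0.03, equal to that of all genes.

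**Figure D2:**
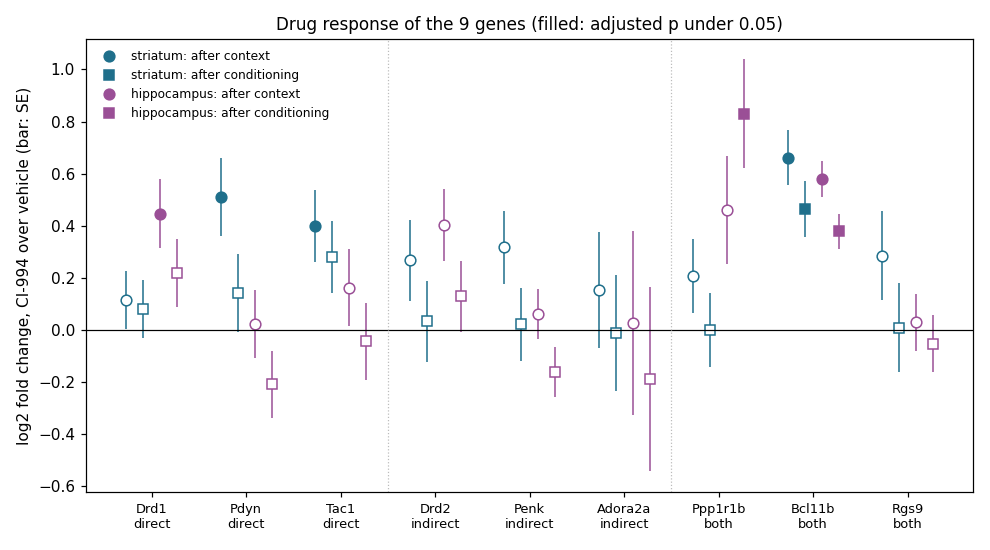
Log2 fold change of CI-994 over vehicle with its standard error for the 9 genes in 4 comparisons, circles after context and squares after conditioning, blue for striatum and purple for hippocampus. Filled symbols passed an adjusted p of 0.05, and only Bcl11b is filled in all 4 comparisons.

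In hippocampus after context exposure, 2 of the 9 genes rose, Bcl11b and Drd1, and none fell, where 19.8% of 18261 genes passed, 6.55% higher and 13.2% lower. Bcl11b measured 131, 113, 124 and 124 CPM with vehicle and 172, 166, 185 and 173 CPM with CI-994. The groups were far apart, with a log2 fold change of 0.58 (SE 0.0689, adjusted p = 1.64e-05). Drd1 measured 2.72, 2.89, 2.49 and 3.41 CPM with vehicle and 3.00, 3.81, 4.39 and 3.59 CPM with CI-994. Vehicle replicate 4 was higher than drug replicate 1, so the groups overlapped, and the log2 fold change was 0.45 (SE 0.132, adjusted p = 0.0234). The Drd1 call held in 3 of 8 fits that left out 1 library, with log2 fold changes from 0.34 to 0.54, and in 6 of the 11 other settings. It was lost with library-size scaling (adjusted p = 0.0505), with no filter on low counts (0.0933), with only the 2 groups compared (0.0736), with replicates 1 and 2 only (0.281) and with replicates 3 and 4 only (0.177).

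Drd2, the other dopamine receptor, measured 2.41, 2.15, 2.01 and 1.97 CPM with vehicle and 2.92, 2.50, 2.52 and 2.75 CPM with CI-994. No library overlapped, but its log2 fold change of 0.40 (SE 0.139) had an adjusted p of 0.0511. Bcl11b and Drd2 were the 2 of 9 genes with all drug libraries above vehicle, as were 5.02% of all genes, and 0 of 9 had them all below, as did 19.6%. Ppp1r1b had a log2 fold change of 0.46 (adjusted p = 0.143), with 31.5, 22.8, 23.9 and 23.9 CPM in vehicle and 33.0, 34.0, 28.9 and 37.0 CPM in drug libraries. Vehicle replicate 1 was high among its group, above drug replicate 3. Ppp1r1b passed without the hippocampal CI-994 CFC replicates 2 and 4, at 0.45 (adjusted p = 0.00557). Those libraries are in neither group compared here and enter the fit through its shared estimate of spread. They had the highest Ppp1r1b levels in hippocampus, so this pass is a description. Tac1 had a log2 fold change of 0.16, and Pdyn, Penk, Adora2a and Rgs9 of 0.02 to 0.06, the last 4 of which turned slightly negative with library-size scaling.

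After conditioning, hippocampal Bcl11b and Ppp1r1b rose, 2 of the 9, where 20.8% of all genes passed, 7.42% higher and 13.4% lower. Bcl11b measured 151, 128, 129 and 127 CPM with vehicle and 172, 163, 164 and 164 CPM with CI-994. The groups did not overlap, and the log2 fold change was 0.38 (SE 0.0690, adjusted p = 0.000818). Ppp1r1b measured 24.6, 29.0, 27.4 and 28.3 CPM with vehicle and 29.3, 60.6, 30.4 and 66.3 CPM with CI-994, a log2 fold change of 0.83 (SE 0.208, adjusted p = 0.00847). Drug replicates 2 and 4 were about as high as each other, and replicates 1 and 3 lay just above the vehicle range. Those 2 high libraries were the ones with 6086 and 5898 CPM of choroid plexus genes, against 38.7 and 33.8 CPM in the other 2 drug libraries and 37.4 to 82.9 CPM in vehicle, and 9 of 9 choroid plexus genes were called higher in this comparison. Without them the Ppp1r1b value was 0.21 (adjusted p = 0.337). None of the 9 choroid plexus genes was at 0 in any hippocampus library, and Ttr, the most abundant of them, ranged from 3.44 to 5433 CPM. The part of choroid plexus RNA in the Ppp1r1b level was not tested. No overlap between groups was seen for Bcl11b and Ppp1r1b, with drug above, and for 5.01% of all genes, and drug wholly below vehicle for 0 of 9 and 18.7%. The other 7 genes did not pass, with log2 fold changes from -0.21 for Pdyn to 0.22 for Drd1, and the median of the 9 was -0.04 beside 0.01 over all genes.

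**Figure D3:**
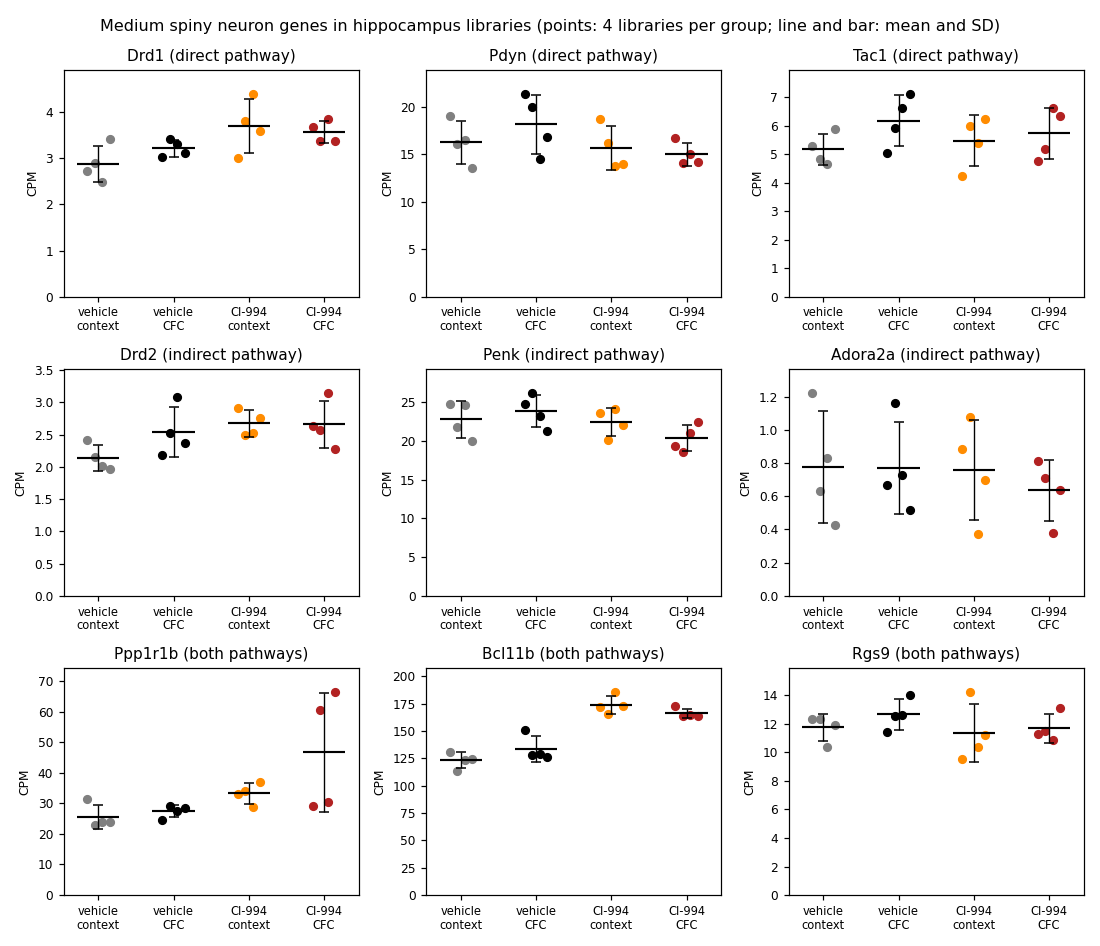
Levels of the 9 genes in the 16 hippocampus libraries, in CPM on axes that start at 0, with 4 libraries per group as points and the mean and SD as line and bar. The CI-994 libraries of Bcl11b lie above all vehicle libraries, and 2 CI-994 CFC libraries stand at 60.6 and 66.3 CPM for Ppp1r1b.

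Bcl11b was thus called in all 4 comparisons of drug with vehicle. In single comparisons 6.55% to 10.3% of all genes were called higher, and the share called in all 4 was not counted. Leaving out any 1 of the 8 libraries kept each of the 4 Bcl11b calls, with the highest adjusted p at 0.0185. The calls were lost only with replicates 1 and 2 alone, in hippocampus after conditioning (adjusted p = 0.0733), in striatum after context (adjusted p = 0.0883) and in striatum after conditioning (adjusted p = 0.185). The comparisons of a region share the estimate of spread but no libraries, since drug and vehicle were separate mice after each behaviour.

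For conditioning itself, 0 of the 9 genes and 0% of all genes tested passed the edgeR test, with vehicle or with CI-994, in either region. With vehicle, log2 fold changes of CFC over context ran from -0.05 to 0.25 in hippocampus and from -0.19 to 0.04 in striatum, with 0 of 9 under an unadjusted p of 0.05 in each. With CI-994 in striatum, all 9 genes were lower after conditioning than after context, by 0.13 for Adora2a up to 0.36 for Pdyn on the log2 scale. Pdyn and Penk had unadjusted p of 0.0278 and 0.0366, and every adjusted p was at least 0.839. Without CI-994 CFC replicate 2 the differences were -0.26 to -0.04. With CI-994 in hippocampus, Ppp1r1b was the one gene with an unadjusted p under 0.05, at 0.0403 and a log2 difference of 0.46, which became -0.16 without the 2 libraries rich in choroid plexus RNA. DESeq2 also called 0 of the 9 in these 4 comparisons.

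The drug response after conditioning was not shown to differ from that after context for any of the 9. The interaction had 0 of 9 genes past the threshold in each region, with 0% of all genes, 0 of 9 under an unadjusted p of 0.05, and 0 of 9 by DESeq2. In striatum all 9 interaction estimates were negative, from -0.37 (SE 0.213) for Pdyn to -0.04 (SE 0.158) for Drd1. Without the 2 striatal libraries that stood apart, those of Drd1 and Tac1 were 0.05 and 0.01. In hippocampus Bcl11b had the smallest unadjusted p, 0.0547, at -0.20 (SE 0.0974).

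The drug response also did not differ between striatum and hippocampus past the threshold for any of the 9, where 0.620% of 19198 genes did so after context and 0.266% after conditioning. DESeq2 called 0 of 9 in both. For Bcl11b the difference was 0.10 (SE 0.131) after context and 0.09 (SE 0.131) after conditioning. For Pdyn, striatum exceeded hippocampus by 0.50 (SE 0.211, adjusted p = 0.502) after context, and for Drd1 it was lower by 0.32 (SE 0.170, adjusted p = 0.729), as log2 differences of differences. Ppp1r1b had the widest difference after conditioning, -0.83 (SE 0.265, adjusted p = 0.248), which passed without hippocampal CI-994 CFC replicate 1 (adjusted p = 0.0328) or replicate 3 (adjusted p = 0.0354), the 2 libraries of that group with low choroid plexus genes.

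To set the pathways side by side, the mean log2 CPM of Drd2, Penk and Adora2a was subtracted from that of Drd1, Pdyn and Tac1 in each library. The difference depends on the genes' lengths and is read only between groups. In striatum it was -1.13 ± 0.145 in vehicle context and -1.05 ± 0.171 in CI-994 context (SD, n = 4), and -1.22 ± 0.228 in vehicle CFC and -1.09 ± 0.0919 in CI-994 CFC. The drug changed it by 0.08 after context and 0.13 after conditioning, both less than the SD of the vehicle group. The change after conditioning was larger than the SD of the CI-994 group, with overlapping libraries. Leaving out 1 library moved these changes between 0.01 and 0.15 after context and between 0.06 and 0.24 after conditioning. Receptors and peptides were also taken separately. With the receptors alone (Drd1 against Drd2 and Adora2a), the change after context was -0.11, from 0.61 ± 0.288 to 0.49 ± 0.191. After conditioning the receptor difference went from 0.44 ± 0.320 to 0.47 ± 0.175. Both receptor changes were less than either SD. With the peptides alone (Pdyn and Tac1 against Penk), the difference went from -3.23 ± 0.144 to -3.10 ± 0.105 after context, with overlapping libraries. After conditioning the peptide difference went from -3.27 ± 0.120 to -3.08 ± 0.0475, a change larger than either SD. The libraries did not overlap, with vehicle at -3.16 or below and CI-994 at -3.13 or above. The receptor and peptide differences are given with all libraries only, among them the 2 striatal CFC libraries that stood apart. No test was made of these differences. In hippocampus the group means were 0.88 and 0.91 after context and 0.96 and 1.02 after conditioning, changes of 0.03 and 0.06. Leaving out 1 library moved the first between -0.06 and 0.16, across 0, and the second between -0.01 and 0.15. In striatum after context the 3 direct genes had a median fold change of 0.40 and the 3 indirect genes of 0.27 on the log2 scale, with 2 and 0 called, and whether the 2 sets responded differently was not tested.

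**Figure D4:**
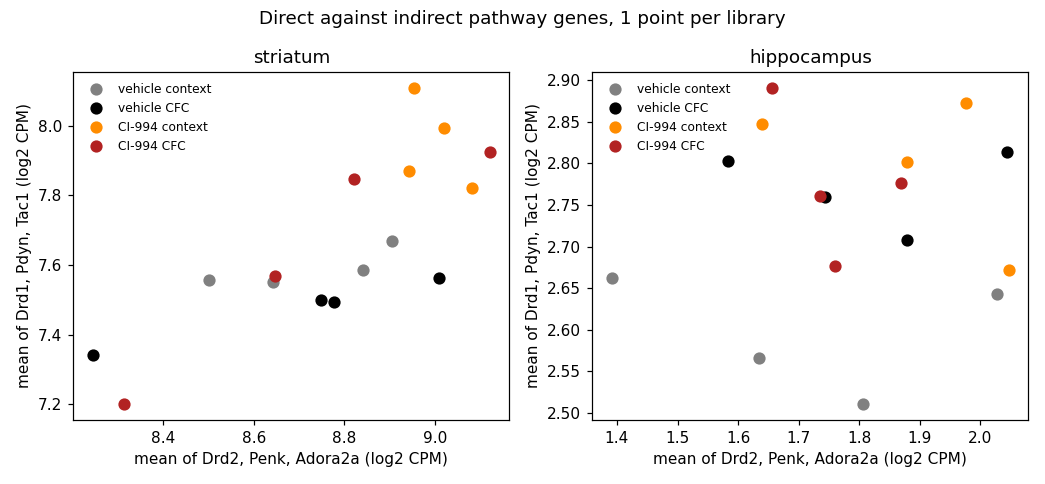
Mean log2 CPM of the 3 direct pathway genes against that of the 3 indirect pathway genes, 1 point per library, with separate ranges for each region. In striatum the points run along a diagonal, and vehicle CFC replicate 3 and CI-994 CFC replicate 2 lie at the lower left.

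Within groups, the striatal levels of the 9 genes moved together from library to library. Over the 16 striatum libraries, deviations from the group mean had a positive Pearson r in 36 of 36 gene pairs, with a median of 0.78 and a range of 0.26 to 0.97. In hippocampus 17 of 36 pairs were positive, with a median of -0.05. These points share library and depth, and they are given as a description. In striatum, CI-994 CFC replicate 2 was below its group mean for 9 of 9 genes with a median deviation of -0.45, and vehicle CFC replicate 3 for 9 of 9 with -0.23. Without both, 35 of 36 pairs were positive with a median of 0.57.

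Markers of tissue around the striatum differed between the same libraries. Summed levels of 8 neocortical neuron genes were 423 CPM in CI-994 CFC replicate 2 and 553 CPM in vehicle CFC replicate 3. They were 432 CPM in CI-994 CFC replicate 4 and 365 CPM in vehicle context replicate 4, and 122 to 247 CPM in the other 12 libraries. None of the 8 was at 0 in any striatum library, and the vesicular glutamate transporter gene Slc17a7 ranged from 3.42 to 348 CPM. Lamp5 ranged only from 76.5 to 114 CPM, with a median of 100 CPM against 35.7 CPM in hippocampus. The lower sums were thus largely Lamp5 and need not be neocortical RNA. In CI-994 CFC, replicate 4 was also below its group mean for 9 of 9 genes, by a median of only 0.04. Summed levels of 8 thalamic genes were 201 CPM in CI-994 CFC replicate 2, against 56.4 to 96.1 CPM in the other 15. The 4 CI-994 context libraries, in which Pdyn, Tac1 and Bcl11b were called higher, had neocortical sums of 152 to 181 CPM against 159 to 365 CPM in vehicle context, with 0 of 8 neocortical genes called in that comparison. Markers of other cell types were called higher there: 3 of 8 thalamic genes, with sums of 72.3 to 96.1 CPM against 58.6 to 69.1 CPM in vehicle, and 4 of 8 astrocyte genes, with 4269 to 5123 against 3950 to 4627 CPM. So were 5 of 8 genes of endothelium and pericytes, 4 of 8 of oligodendrocyte precursors, 3 of 11 of striatal interneurons, 1 of 8 of oligodendrocytes and 1 of 6 of choroid plexus, beside 10.3% of all genes. None was called higher among 8 microglia genes and 9 genes of hippocampal excitatory neurons. No gene of these lists was called lower. Of the thalamic genes called, Rgs16 (0.63) and Plekhg1 (0.26) were also called higher in hippocampus after context, and Tcf7l2 was not. Sox9 of astrocytes and Opalin of oligodendrocytes were called there too, whereas Aqp4, Slc1a3 and Gja1 were not. The choroid plexus gene called was Clic6, which was higher in striatum than in hippocampus in vehicle context (log2 difference 3.46). The part of neighbouring tissue or of other cell types in the levels of the 9 genes was not tested.

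**Figure D5:**
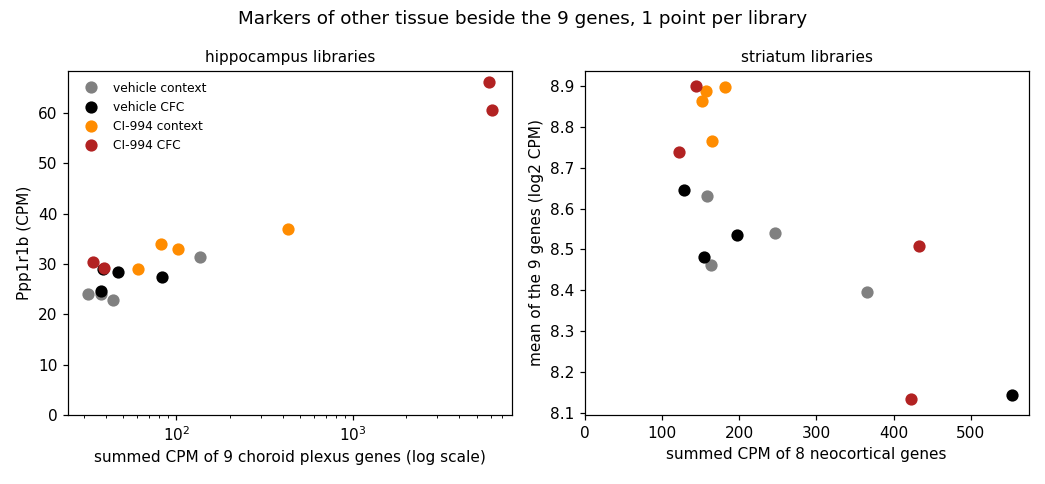
Left, Ppp1r1b in CPM against the summed CPM of 9 choroid plexus genes on a log axis in 16 hippocampus libraries, where 2 CI-994 CFC libraries stand apart on both axes. Right, the mean log2 CPM of the 9 genes against the summed CPM of 8 neocortical genes in 16 striatum libraries, where vehicle CFC replicate 3 (553 CPM) and CI-994 CFC replicate 2 (423 CPM) have the lowest means.

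The genes most alike to each of the 9 over the 16 striatum libraries were taken by Pearson r of log2 CPM among 9700 genes. Drd2, Ppp1r1b and Rgs9 had each other or the same partners among their top 3: Drd2 and Ppp1r1b had r of 0.97 with one another, and Pde1b and Gng7 stood close to Drd2 (0.97 and 0.96). Rgs9 had Gng7 (0.97), Pde1b (0.96) and Drd2 (0.96), and Ppp1r1b had Pde1b (0.98) and, after Drd2, Cd4 (0.97). Pde1b encodes a calcium-dependent phosphodiesterase and Gng7 a G protein gamma subunit, both enriched in medium spiny neurons. Bcl11b was most like Rgs8 (0.98), Chst15 (0.98) and Adgrf5 (0.98), and Adora2a most like Fbxl16 (0.99), Asic4 (0.98) and Insyn1 (0.97). Among the direct pathway genes, Drd1 was most like Pcp4l1 (0.96), Fam184a (0.94) and Lrrk2 (0.94), Tac1 most like Mbd2 (0.97), Socs5 (0.96) and Arpp21 (0.96), and Pdyn most like Klhl29 (0.95), Sipa1l1 (0.92) and Dpp6 (0.89). Penk was most like Lrrk2 (0.95), Ryr3 (0.95) and Tacr1 (0.95). These values mix differences between groups with those between libraries.

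Of 18 further genes shared by both pathways, 6 rose in striatum after context, where 10.3% of all genes did, among them the GABA synthesis genes Gad2 (log2 fold change 0.36) and Gad1 (0.28) and the retinoic acid receptor gene Rarb (0.48). After conditioning 2 of 18 rose, Gad2 (0.30) and Gad1 (0.25), near the 9.57% of all genes, and none fell in either. The median of the 18 was 0.28 after context and 0.10 after conditioning. In hippocampus 3 of 18 rose after context, Arpp21 (0.60), Pde1b (0.34) and Foxp1 (0.20), beside 6.55% of all genes. After conditioning 1 of 18 rose, Arpp21 (0.51), near the 7.42% of all genes.

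Few of the further pathway-specific genes passed. Of 6 other direct pathway genes, the homeobox gene Isl1, which specifies direct pathway neurons, fell in striatum by 0.60 after context (adjusted p = 0.00301) and by 0.76 after conditioning (adjusted p = 0.000563) on the log2 scale, while Sfxn1 rose by 0.40 after context (adjusted p = 0.0182). Of 5 other indirect pathway genes tested in striatum, Upb1 rose by 0.58 after context (adjusted p = 0.00332) and none passed after conditioning. In striatum 10.3% of all genes were called higher and 14.5% lower after context, and 9.57% and 14.6% after conditioning. With lists this short, the calls are no result about the lists. In hippocampus none of either list passed, with 5 and 3 genes tested by edgeR, where 19.8% and 20.8% of all genes passed after context and conditioning.

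Among 22 genes of dopamine and cAMP signalling, Cdk5r1, whose product p35 activates the kinase Cdk5 that acts on DARPP-32, rose in all 4 comparisons. Its log2 fold changes were 0.62 (adjusted p = 2.18e-06) and 0.62 (adjusted p = 2.19e-06) in striatum and 0.51 and 0.48 in hippocampus, after context and conditioning. The share of all genes that rose in all 4 was not counted. In striatum after context the D3 receptor gene Drd3 rose by 0.79 and the kinase subunit gene Prkar2b by 0.31, so that 3 of 21 tested rose. After conditioning 2 of 21 rose, with the catalytic subunit gene Prkacb at 0.18 the other. Both counts were near the 10.3% and 9.57% of all genes that rose, so they are no result about the list. In hippocampus Creb1, which encodes the transcription factor that binds cAMP response elements, fell by 0.41 after context and by 0.35 after conditioning, and Rgs7bp, which anchors RGS proteins such as Rgs9 to membranes, rose by 0.32 after context. Of 13 genes for opioid and tachykinin receptors and peptide processing, none passed after context in either region or after conditioning in hippocampus. Among all genes, 24.8% passed in striatum after context, and 19.8% and 20.8% in hippocampus after context and conditioning. In striatum after conditioning the kappa opioid receptor gene Oprk1, whose ligand is dynorphin, fell by 0.61 (adjusted p = 0.0162), and the nociceptin precursor gene Pnoc rose by 2.27 (SE 0.747, adjusted p = 0.0357). There 9.57% of all genes were called higher and 14.6% lower. Values of Oprk1 and Pnoc without the libraries that stood apart were not taken.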

How the data were processed

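Whole-number read counts per gene for 32 libraries were deposited by the authors. Libraries were made with a stranded polyadenylated RNA kit, per the labels' protocols. Named in the submitters' processing notes are the mm10 build, DESeq2, STAR 2.6 and bcl2fastq 2.20.0. How reads were counted, and whether by strand, is not given in the sources used here. Antisense genes A830012C17Rik and 1700003D09Rik overlap 14.3% of Penk and 15.7% of Ppp1r1b exonic bases and had at most 11 and 119 counts in any library. Of 54146 identifiers 54079 matched GENCODE M21, and exon union lengths from it gave levels per kilobase. All replicate pairs differed beyond sampling noise (chi-square over its degrees of freedom 5.35 to 61.8).

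Genes that passed edgeR's filterByExpr (edgeR 4.0.16, R 4.3.3) were fitted per region with 4 groups, TMM scaling and quasi-likelihood tests on 12 residual degrees of freedom; regions were compared in a fit of all 32. P-values were Benjamini-Hochberg adjusted over all genes, threshold 0.05. The script was tested on simulated counts. Alternatives were library-size or DESeq2 scaling, GC and length offsets, DESeq2 1.42.0, no filter, a replicate block, subsets of samples and each library left out. The 9 genes and all lists were chosen with earlier results of these data known. All 9 are named; of other lists at most 3 with the smallest adjusted p under 0.05 per comparison are named, and the 3 genes most alike. Scaling moved the share of called genes that rose: it was 33.1% after context and 35.7% after conditioning in hippocampus and 41.5% and 39.6% in striatum, against 19.0%, 23.6%, 21.4% and 23.5% with library size alone and 48.3%, 51.8%, 49.4% and 49.0% with GC and length offsets. Library-size scaling moved the median of all genes in striatum after context from 0.03 to -0.09 on the log2 scale. Gpr52 was not analysed here.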

Additional observations from a re-analysis of the deposited data

Results flagged for a closer look

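Of 80 groups of 4 values examined with Dixon's ratio, 4 had a library far from the others, and about 4 would be flagged by chance. In hippocampus, Ppp1r1b was 31.5 CPM in vehicle context replicate 1, with the other 3 libraries at 22.8 to 23.9 CPM. Bcl11b was 151 CPM in vehicle CFC replicate 1 against 127 to 129 CPM, and 172 CPM in CI-994 CFC replicate 1 against 163 to 164 CPM. In striatum, Rgs9 was 820 CPM in CI-994 context replicate 2 against 649 to 673 CPM.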

How the results depend on the processing

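The 9 regional calls at baseline held under every alternative, as did 0 called in the conditioning and interaction comparisons. In hippocampus after context, 2 of the 9 were called, and 1 with library-size scaling, with no filter, with replicates 1 and 2 only and with replicates 3 and 4 only. With only the groups compared, 2 were called, with Drd1 lost and Ppp1r1b added. In hippocampus after conditioning, 2 were called, and 0 with replicates 1 and 2, 1 with replicates 3 and 4 and 1 without the libraries that stood apart. In striatum after context, 3 were called, and 1 with library-size scaling, 0 with replicates 1 and 2 and 5 when only the groups compared were fitted, which added Penk and Ppp1r1b. In striatum after conditioning, 1 was called, and 0 with replicates 1 and 2 and 2 without the libraries that stood apart. Those striatal libraries were set apart in part by low levels of these genes. Leaving out 1 library gave counts of 1 to 2 in hippocampus and 1 to 2 in striatum after context, 1 to 2 in striatum after conditioning and 0 to 1 for the regional difference after conditioning. The change in the direct minus indirect difference in striatum after context was -0.11 with receptors only, less than the SD of either group. The causes were not tested, except that smaller subsets hold fewer samples. No called gene reversed.

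Same-numbered libraries did not deviate together throughout: their correlations had a median of 0.17 in hippocampus (16 of 24 pairs over 0.1) and 0.02 in striatum (9 of 24). A replicate block gave 3 called in hippocampus after context, adding Drd2 (adjusted p = 0.0358), and 2, 3 and 1 in the other 3 drug comparisons, with 9 at baseline.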
